A study of Mus musculus with 27 samples.

Results

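Smooth muscle type contractile and filamin genes are described here across 8 groups of mouse cells measured on 27 Illumina bead arrays, which read the abundance of a transcript as the brightness of a short probe. The 10 genes were taken by name: Acta2, Tagln, Cnn1, Cnn2, Myl9, Tpm1, Tpm2, Flna, Flnc and Fhl1, out of 19057 genes that the probe annotation names. They carry 25 of the array's 45281 probes. Of these, 16 probes of 9 genes passed the detection filter, which asked for a detection p-value below 0.05 on at least 3 arrays; for the whole array 25001 probes and 12814 genes were tested. Cnn1 was the member that did not pass. Its only probe was detected on 1 array, of the CD8 Tnaive group, and its group means lay between 4.29 and 4.50 on the log2 intensity scale, so it enters no test.

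All samples came from strain C57BL/6. The brain groups were Astrocyte and Microglia, each with 3 arrays and labelled day 3, and Neuron, with 3 arrays from embryonic day 15 to 16. The lines ESdM 20 and ESdM 22, with 3 arrays each, come from embryonic stem cells and were taken after more than day 51 of culture. The study's title presents them as stem cell-derived microglia, and the labels do not say how many clones or cultures each stands for. The bone marrow groups were MF, with 4 arrays, and BM-DC, with 3 arrays, both labelled day 7, and neither abbreviation is spelled out in the labels. The CD8 Tnaive group held 5 arrays of spleen cells from mice aged 6 to 8 weeks. The labels name no genetic change or drug in any group, and they do not say whether replicates were separate animals or cultures, so p-values measure the spread between these arrays, which may be technical.

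These genes encode the actin cytoskeleton's contractile side. In smooth muscle, the alpha actin encoded by Acta2 forms filaments on which myosin pulls once its regulatory light chain is phosphorylated, while transgelin (Tagln), the calponins (Cnn1, Cnn2) and the tropomyosins (Tpm1, Tpm2) bind along the filament and tune that pull. Filamins cross-link actin filaments and tie them to the membrane: Flna is made by most cells, and Flnc is known chiefly from striated muscle. Many of the genes are targets of serum response factor (SRF), which binds the CArG box and is driven by the myocardin family of coactivators, and in brain tissue several of them are best known from the mural cells of vessels.

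Because these genes are known as SRF targets, the promoters that hold a CArG box or a near match are shown, as RefSeq gives them on build GRCm38.p6. Each window runs from 250 bases before to 50 after a start site of the RefSeq table, 5′ to 3′ on the gene's strand. Such a site need not be the outermost start of the gene: those of Fhl1 and Flna, among others, lie inside the annotated gene. The CArG box was searched as 2 C, then 6 bases of A or T, then 2 G, a rule that reads the same on both strands, and a near match had 1 G or C among those 6 bases. Acta2 is at chr19:34255324-34255623 on the minus strand, Myl9 at chr2:156775214-156775513, Cnn2 at chr10:79988350-79988649, Fhl1 (the first of its 2 windows) at chrX:56779433-56779732 and Flnc (the first of its 2 windows) at chr6:29432903-29433202, these 4 on the plus strand. Capitals mark CArG boxes and near matches.
Acta2: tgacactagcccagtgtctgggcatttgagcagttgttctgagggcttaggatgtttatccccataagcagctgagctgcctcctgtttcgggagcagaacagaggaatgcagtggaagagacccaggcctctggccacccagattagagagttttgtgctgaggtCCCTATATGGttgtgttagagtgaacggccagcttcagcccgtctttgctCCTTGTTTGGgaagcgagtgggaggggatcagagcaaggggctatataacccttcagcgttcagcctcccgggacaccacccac
Myl9: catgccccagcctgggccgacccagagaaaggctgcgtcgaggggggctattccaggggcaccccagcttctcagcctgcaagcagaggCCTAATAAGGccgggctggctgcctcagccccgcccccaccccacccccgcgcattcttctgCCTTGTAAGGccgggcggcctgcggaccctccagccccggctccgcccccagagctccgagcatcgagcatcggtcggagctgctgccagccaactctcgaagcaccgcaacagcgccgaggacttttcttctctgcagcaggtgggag
Cnn2: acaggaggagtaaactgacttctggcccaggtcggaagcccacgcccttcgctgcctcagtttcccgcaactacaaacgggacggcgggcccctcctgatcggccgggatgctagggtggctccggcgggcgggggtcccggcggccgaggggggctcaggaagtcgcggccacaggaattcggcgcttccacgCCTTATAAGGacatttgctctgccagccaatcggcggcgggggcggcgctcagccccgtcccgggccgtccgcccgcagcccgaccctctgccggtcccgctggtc
Fhl1: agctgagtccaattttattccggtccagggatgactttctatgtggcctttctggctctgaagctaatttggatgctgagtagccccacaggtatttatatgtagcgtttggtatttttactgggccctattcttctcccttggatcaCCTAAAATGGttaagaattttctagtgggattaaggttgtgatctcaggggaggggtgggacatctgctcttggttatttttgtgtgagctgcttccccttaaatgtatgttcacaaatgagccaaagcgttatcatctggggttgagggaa
Flnc: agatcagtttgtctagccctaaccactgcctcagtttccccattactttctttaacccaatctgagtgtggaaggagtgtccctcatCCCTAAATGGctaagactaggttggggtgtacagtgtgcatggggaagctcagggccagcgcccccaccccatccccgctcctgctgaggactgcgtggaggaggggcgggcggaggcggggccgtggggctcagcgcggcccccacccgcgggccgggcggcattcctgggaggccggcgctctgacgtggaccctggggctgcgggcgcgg

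A CArG box lay in 3 of the 9 members with a window, against 1.806% of all 27025 genes with one. Counted from the start site of its window, it began at position -161 in Myl9, -56 in Cnn2 and -102 in Fhl1. Near matches lay at -84 and -34 in Acta2, at -99 in Myl9 and at -163 in Flnc; at least 1 near match was present in 8.499% of all 32851 windows and at least 2 in 0.679%. The remaining windows, of Cnn1, Tpm1, Tpm2, Flna and the second windows of Flnc and Fhl1, held neither, and no window was at hand for Tagln. The letters describe these windows and were not tested for binding.

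By the number of members detected on every array, the Astrocyte group stood apart from the others. The share of all genes detected on every array of a group is not given here, so these counts have no baseline. Taking for each gene its brightest probe, the Astrocyte arrays detected 9 of the 10 members on every array, the Neuron arrays 4, the Microglia, ESdM 20 and ESdM 22 arrays 4 each, MF 3, BM-DC 5 and CD8 Tnaive 3. Tpm1 and Flna were detected on every array of all 8 groups. Acta2 was detected on every array of 7 groups, Flnc of 5, Cnn2 of 3 and Fhl1 of 2. Tagln, Myl9 and Tpm2 were detected on every array of 1 group only, Astrocyte. Fewer cells of a type and less RNA per cell cannot be told apart in such bulk samples.

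The libraries and their markers were as follows. The median raw intensity was 80.1 to 113 outside BM-DC and at most 28.6 in BM-DC, before normalization, and 14247 to 17533 probes were detected per array. Microglia and both ESdM lines shared 2 chips, Astrocyte and Neuron shared 1, and MF, BM-DC and CD8 Tnaive lay on chips of their own, so that chip and cell type cannot be told apart in any comparison with MF or between Astrocyte and Microglia. The arrays labelled Microglia detected 6 of 6 macrophage markers but only 1 of 6 microglia markers (Sall1) on every array. The Astrocyte arrays detected 8 of 10 astrocyte markers, but also 6 of 6 microglia, 5 of 6 macrophage and 7 of 10 fibroblast markers on every array. ESdM, MF and BM-DC arrays detected all 6 macrophage markers, BM-DC 4 and MF 3 of 7 dendritic cell markers, and CD8 Tnaive 4 of 5 T cell markers. Of 6 pluripotent stem cell markers, 0 were detected on all ESdM 20 and 1 on all ESdM 22 arrays, with list means from 4.38 to 4.51. CD8 Tnaive also detected 2 of 6 macrophage markers on every array (list means 4.55 to 6.58). Neuron detected 5 of 8 neuron and 6 of 10 astrocyte markers, and Astrocyte 2 of 8 neuron markers. Their part in the member levels was not tested.

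**Figure D1:**
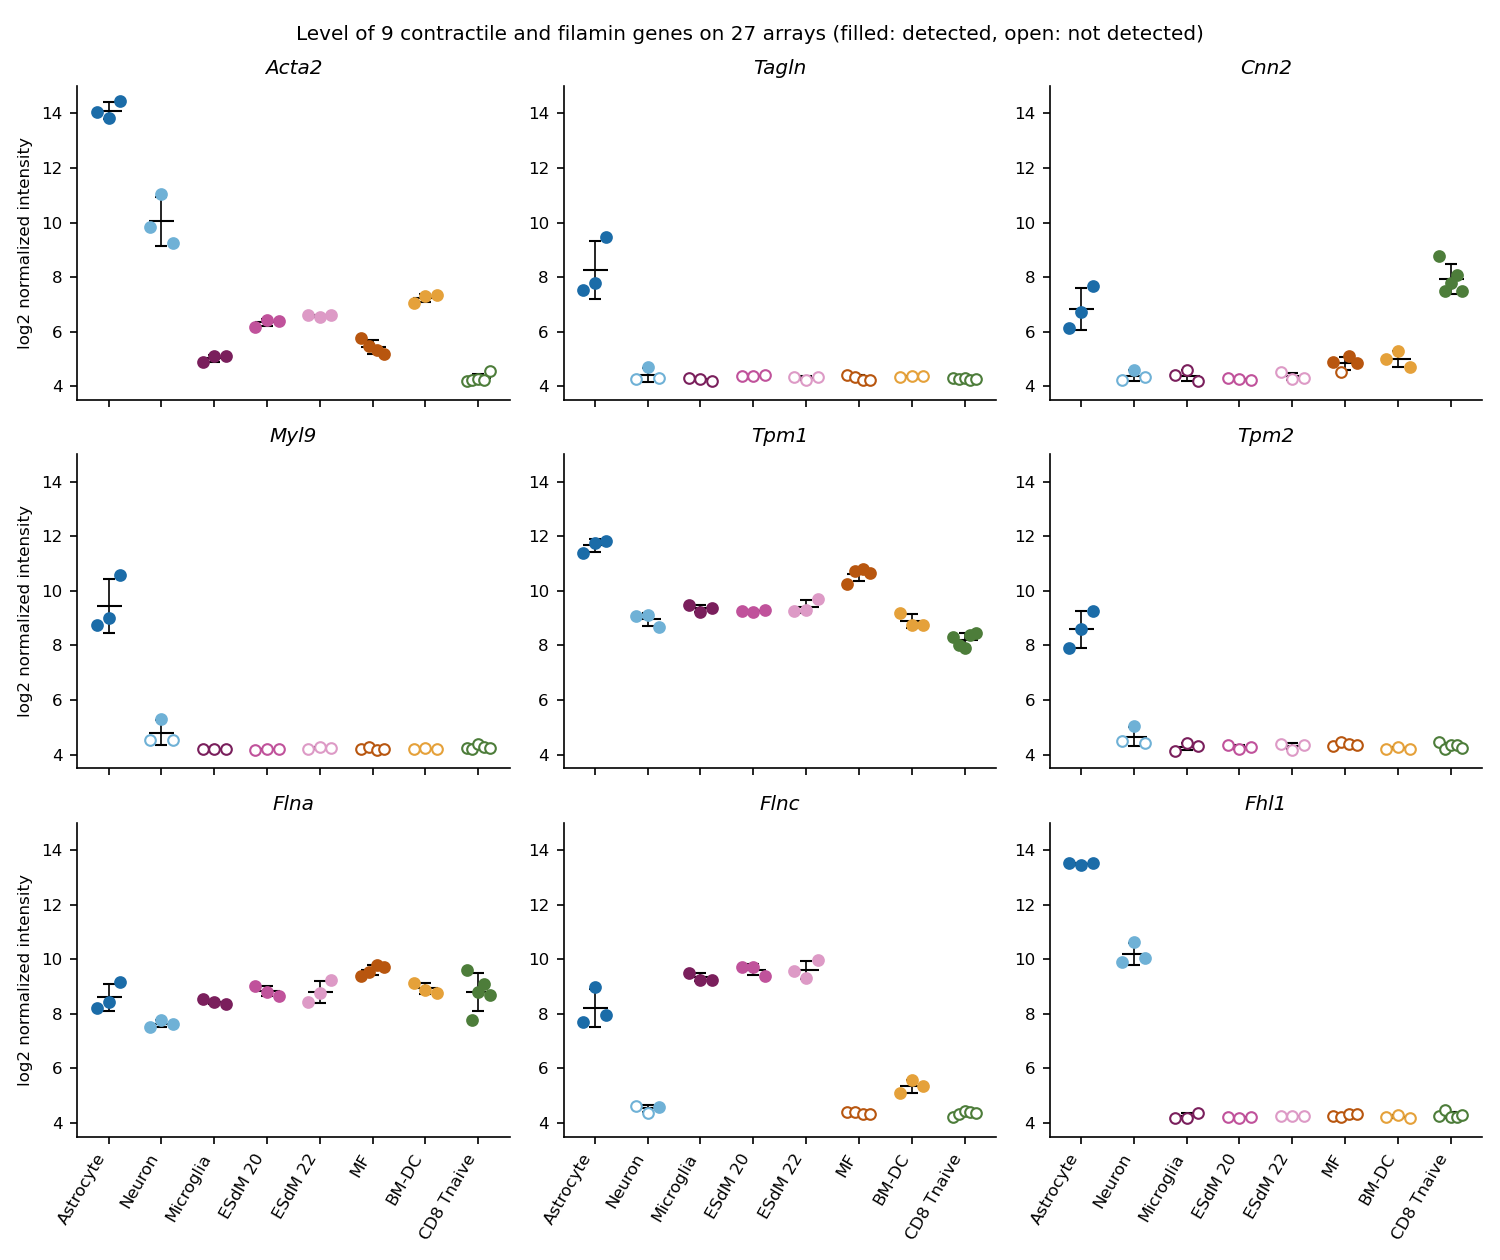
Level of the 9 tested genes (vertical axis, log2 normalized intensity of the brightest probe) on each array, by group (horizontal axis); filled points are arrays on which the probe was detected, open points arrays on which it was not, and the bar gives mean ± SD. Tagln, Myl9, Tpm2 and Fhl1 stand above the undetected values, whose median was 4.28, in Astrocyte and in part Neuron arrays, Flnc in Microglia, ESdM and Astrocyte arrays, and Tpm1 and Flna in every group.

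The thin filament actin Acta2 had its highest level in Astrocyte, where the 3 arrays read 14.04, 13.82 and 14.44 (log2 intensity). The Neuron arrays read 9.84, 11.03 and 9.25, and the Microglia arrays 4.89, 5.11 and 5.11. No Neuron array reached the Astrocyte arrays, and no Microglia array reached a Neuron array. The ESdM 20 arrays read 6.19, 6.44 and 6.38, and the ESdM 22 arrays 6.61, 6.54 and 6.61. The MF arrays read 5.76, 5.47, 5.35 and 5.17 and the BM-DC arrays 7.05, 7.31 and 7.33. Every BM-DC array was above every ESdM array, and every ESdM array above every MF and Microglia array, while this probe was detected on none of the 5 CD8 Tnaive arrays. In the order of the group means, the steps from Astrocyte to Neuron (4.06 ± 0.257 log2 units, SE) and from Neuron to BM-DC (2.81 ± 0.257) were called, that is, they passed an adjusted p of 0.05 in limma with a log2 difference of at least 1. Between these pairs of groups 32.4% and 43.5% of all genes were called. The steps from BM-DC to ESdM 22 (0.65), from ESdM 22 to ESdM 20 (0.25), from ESdM 20 to MF (0.90) and from MF to Microglia (0.40) were not.

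Of the other 5 Acta2 probes 3 passed the filter, and they ranked Astrocyte and Neuron the same way. Their Astrocyte minus Neuron differences were 4.66, 4.53 and 4.11 log2 units, all called. At the low end of the scale they did not follow the brightest probe: in ESdM against Microglia they differed by 0.19, 0.12 and 0.0039 log2 units with adjusted p from 0.912 to 1 in limma, where the brightest probe differed by 1.43. They were near background there, detected on 4, 2 and 5 of 6 ESdM arrays and on 1, 0 and 2 of 3 Microglia arrays. Whether the Acta2 probes also bind transcripts of the other actin genes, whose sequences are close, was not tested.

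Tagln, Myl9 and Tpm2 had one pattern. Transgelin (Tagln) read 7.52, 7.78 and 9.47 on the Astrocyte arrays. The Neuron arrays read 4.26, 4.73 and 4.29 for Tagln, detected on 1 of 3, and no array of the other 6 groups detected it. The Astrocyte and Neuron arrays did not overlap. Myl9, the myosin regulatory light chain of smooth muscle and non-muscle cells, read 8.76, 8.99 and 10.57 in Astrocyte and 4.52, 5.32 and 4.55 in Neuron, where 1 of 3 arrays detected it. Tpm2, or beta tropomyosin, read 7.89, 8.62 and 9.25 in Astrocyte and 4.52, 5.06 and 4.41 in Neuron, again detected on 1 of 3. For both genes every other group was undetected and every Astrocyte array was above every Neuron array.

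Fhl1, a LIM domain protein known from striated muscle, read 13.50, 13.46 and 13.53 on the Astrocyte arrays. On the Neuron arrays it read 9.88, 10.62 and 10.05, and it was detected on none of the 21 arrays of the other 6 groups. Its SD was 0.0332 in Astrocyte and 0.392 in Neuron (n = 3 each), and the step between the groups was 3.31 ± 0.128 log2 units (SE; adjusted p = 1.01e-17, limma).

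Tpm1, the alpha tropomyosin, differed less between groups. It read 11.40, 11.76 and 11.83 in Astrocyte and 10.25, 10.72, 10.79 and 10.64 in MF. The step between them was 1.06 ± 0.162 log2 units (SE) and was called, as were 31.2% of all genes between these groups. MF lay 1.18 ± 0.162 above ESdM 22, the next group, also called (24.0% of all genes), and no MF array fell to the level of any ESdM, Microglia, Neuron, BM-DC or CD8 Tnaive array. The next 6 groups followed with means of 9.42 in ESdM 22, 9.37 in Microglia, 9.26 in ESdM 20, 8.96 in Neuron, 8.89 in BM-DC and 8.21 in CD8 Tnaive. None of the steps between neighbours among them was called, the last one (0.68 ± 0.155, adjusted p = 4.70e-04, limma) because its size was under the minimum.

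Cnn2, the calponin that is also made outside muscle, had its highest level in the spleen cells. In CD8 Tnaive its 5 arrays read 8.78, 7.49, 7.79, 8.08 and 7.48. The Astrocyte arrays read 6.12, 6.71 and 7.66, and both groups overlapped in this range, although the step between their means (1.09 ± 0.260 log2 units, SE; adjusted p = 5.98e-04, limma) was called, as for 40.5% of all genes. The step from Astrocyte to BM-DC (1.83 ± 0.291) was called as well. The BM-DC arrays read 4.99, 5.30 and 4.72, and 3 of the 4 MF arrays detected Cnn2, with a group mean of 4.85. It was detected on 1 of 3 Neuron arrays and on no Microglia or ESdM array. A second Cnn2 probe had the same group on top, 5.95 in CD8 Tnaive, where it was detected on 5 of 5 arrays, but it was detected on only 1 of 3 Astrocyte arrays.

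The filamins had different patterns from each other. Filamin A (Flna) was detected everywhere with group means from 7.63 in Neuron to 9.59 in MF, and none of the 7 steps between neighbouring groups was called. Its CD8 Tnaive arrays had the widest spread of any group, from 7.76 to 9.62 with a median of 8.80. Filamin C (Flnc) read 9.50, 9.25 and 9.24 in Microglia. It read 9.73, 9.72 and 9.38 in ESdM 20 and 9.55, 9.32 and 9.96 in ESdM 22. These 9 arrays overlapped and all stood above the Astrocyte arrays, at 7.70, 8.99 and 7.95. The BM-DC arrays read 5.10, 5.59 and 5.34, below every Astrocyte array and above every MF array (4.42, 4.41, 4.32 and 4.33). Flnc was detected on no MF and no CD8 Tnaive array and on 1 of 3 Neuron arrays. All these Flnc values rest on 1 of its 2 probes. The other probe was detected on no array of any group, with means of 4.29 in Microglia, 4.21 in ESdM 20 and 4.22 in ESdM 22. Why the 2 probes differ was not tested. The steps from Microglia to Astrocyte (1.12 ± 0.213 log2 units, SE) and from Astrocyte to BM-DC (2.87 ± 0.213) were called, where 35.4% of all genes were called in each pair of groups. In all, 12 of 33 steps between neighbouring groups were called over the 9 genes. The pairs of groups with a called step had 24.0% to 43.5% of all genes called. The order of the groups was taken from these same means, and groups that did not detect a gene were left out of its order. The count is therefore a description.

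Across the 27 arrays the members fell into a set that moved together and others that did not, which is given as a description, since the points share groups and chips. Pearson's r was 0.995 between Myl9 and Tpm2, 0.993 between Tagln and Myl9, 0.988 between Tagln and Tpm2 and 0.943 between Acta2 and Fhl1. Tagln, Myl9 and Tpm2 were each detected on 4 of the 27 arrays and Fhl1 on 6. Their r therefore mainly sets those arrays against background. Flnc had r of at most 0.252 with any other member, and Cnn2 at most 0.352. Within Astrocyte, replicate 3 was the highest array for 8 of the 9 genes, and within Neuron, replicate 2 was. Of the Neuron arrays, replicate 2 also had the highest mean of the astrocyte marker list, 7.35 against 6.40 and 6.36. It detected 8 of 10 markers against 7 and 7. Of the Astrocyte arrays, replicate 3 had the lowest mean of this list, 9.64 against 9.80 and 9.88. It detected 8 of 10 markers against 9 and 10. The part of astrocyte content in the member levels was not tested.

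The genes whose level was most like that of each member across the 27 arrays were found by Pearson's r over the 12814 genes tested. For Tagln, Myl9 and Tpm2 (detected on 4 arrays each) and Fhl1 (on 6), most of these arrays were at background, so a high r says little beyond which arrays were bright. For Acta2 they were 1700088E04Rik, Gldc and Tpbg (r = 0.970 to 0.965). For Tagln they were Adam12, Bmp6 and Dlk1 (0.986 each), for Myl9 Arsi, Steap2 and Bicc1 (0.992 to 0.991), and for Tpm2 Hspb1, Arsi and Mro (0.991 to 0.990). Fhl1 was most like Acsl6, Igdcc4 and Tlcd4 (0.999 to 0.998), and Flnc was most like Cox14, Hapln4 and Pip5k1b (0.972 to 0.965). Cnn2 was most like Zhx2, Slc14a1 and Reck (0.958 to 0.953), Tpm1 like Hsd17b4, Col18a1 and Etv5 (0.944 to 0.937) and Flna like Xylt2, Pfn1 and Cln6 (0.810 to 0.808).

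Astrocyte against Neuron asks how these genes differ between the primary neural cultures, which lay on 1 chip. All 8 genes called were higher in Astrocyte, against 32.4% of all genes called in either direction, 17.6% called higher and 14.8% called lower. Tagln, Myl9 and Tpm2 passed the detection filter only through the Astrocyte arrays and so had to differ; of the other 6 members, 5 were called. Acta2 was 16.7-fold higher (4.06 ± 0.257 log2 units, SE; adjusted p = 2.80e-13, limma), and Fhl1 was 9.95-fold higher. Flnc was 12.8-fold higher (3.68 ± 0.213, adjusted p = 4.31e-14) and Cnn2 5.45-fold, each against a group with detection on 1 of 3 arrays. Without background correction the differences were 2.03 log2 units for Flnc, 1.14 for Cnn2, 2.14 for Tagln, 2.98 for Myl9 and 2.28 for Tpm2, all still called. Tpm1 was 6.50-fold higher, with its second probe at 2.85 ± 0.15 log2 units and also called. Flna differed by 0.98 ± 0.293 log2 units (adjusted p = 0.00587, limma), just under the minimum size; it passed without Astrocyte replicate 1 (1.17), Astrocyte replicate 2 (1.06) or Neuron replicate 2 (1.04). Arrays did not overlap for 9 of the 9 genes and for 60.7% of all genes. The second Cnn2 probe differed by 0.21 log2 units and was not called (adjusted p = 0.496, limma).

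Beside these differences, the mural cell list was near background in both cultures. Of its 10 markers, 2 were detected on all Astrocyte arrays (Notch3, mean 6.53, and Pdgfrb, 5.21) and 1 on all Neuron arrays (Notch3, 4.88). The mean over the list was 4.64 to 4.66 on Astrocyte and 4.39 to 4.42 on Neuron arrays. The smooth muscle myosin heavy chain Myh11, Rgs5 and Vtn were detected on no array of any group, so whether their probes work cannot be told here. Kcnj8 and Anpep were detected on no Astrocyte or Neuron array. The rest of the list was detected on part of the Astrocyte arrays, Abcc9 on 2 of 3, Cspg4 on 1 and Des on 1, and on no Neuron array. The neuron markers Tubb3, Snap25 and Nefl were likewise detected on no Neuron array, so non-detection by 1 probe does not show that a transcript was absent. Of the fibroblast list, 7 of 10 markers were detected on all Astrocyte and 4 of 10 on all Neuron arrays, with list means of 6.58 to 6.87 and 5.35 to 5.57. Col5a1 (9.49) and Thy1 (13.10, also made by neurons) led the list in Astrocyte, and Col3a1 and Lum were detected on no Astrocyte array. The macrophage list had means of 8.59 to 9.41 on Astrocyte and 4.26 to 4.29 on Neuron arrays, with 5 and 0 of 6 markers detected on all arrays. The microglia list had means of 7.41 to 8.17 and 4.40 to 4.52, with 6 and 1 of 6 markers. The part of these cell types in the differences, that of Flnc included, was not tested.

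Astrocyte against Microglia gave 7 genes higher and 1 lower, against 18.8% of all genes called higher, 16.6% lower and 35.4% in either direction. Tagln, Myl9, Tpm2 and Fhl1 passed the filter only through Astrocyte and Neuron arrays and so had to differ here; of the other 5 members, 3 were higher and 1 lower. Arrays did not overlap for 8 of the 9 genes and for 68.3% of all genes. Acta2 was 536-fold higher (9.07 ± 0.257 log2 units, SE; adjusted p = 1.39e-20, limma), and its 3 other probes were 7.78, 5.46 and 4.45 log2 units higher, all called. Against Microglia arrays without detection, Fhl1 was at least 463-fold higher, Myl9 at least 27.8-fold, Tpm2 at least 15.4-fold, Tagln at least 12.3-fold and Cnn2 at least 4.56-fold. Such a bound sets the mean of the detected group against the lowest signal that was detected on each array of the other group, and it holds for the background-corrected values. Without that correction the differences were smaller, though still called: 7.14 log2 units in place of 9.25 for Fhl1, 3.27 in place of 5.24 for Myl9, 2.46 in place of 4.29 for Tpm2, 2.23 in place of 4.00 for Tagln and 1.13 in place of 2.44 for Cnn2. That of Acta2 was 7.40 without the correction and 6.69 as the mean over its probes. Tpm1 was 4.89-fold higher. Flnc went the other way: it was 2.17-fold higher in Microglia (Astrocyte minus Microglia -1.12 ± 0.213, adjusted p = 5.72e-05, limma), a difference that fell under the minimum without Astrocyte replicate 1 (-0.86) or replicate 3 (-0.99), without background correction (-0.93) and with the authors' processed values (-0.94). Flna differed by 0.17 ± 0.293 with a 95% interval from -0.45 to 0.78.  The Astrocyte arrays carried macrophage markers at list means of 9.41, 8.59 and 8.69 (replicates 1 to 3), where Flnc read 7.70, 8.99 and 7.95. The list means were 10.1 to 10.3 on the Microglia arrays. They were 10.1 to 10.4 on the ESdM arrays, where Flnc read 9.32 to 9.96. On the MF arrays, where Flnc was not detected, they were 11.6 to 11.8. The part of macrophage-type cells in the Flnc level was not tested.

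**Figure D2:**
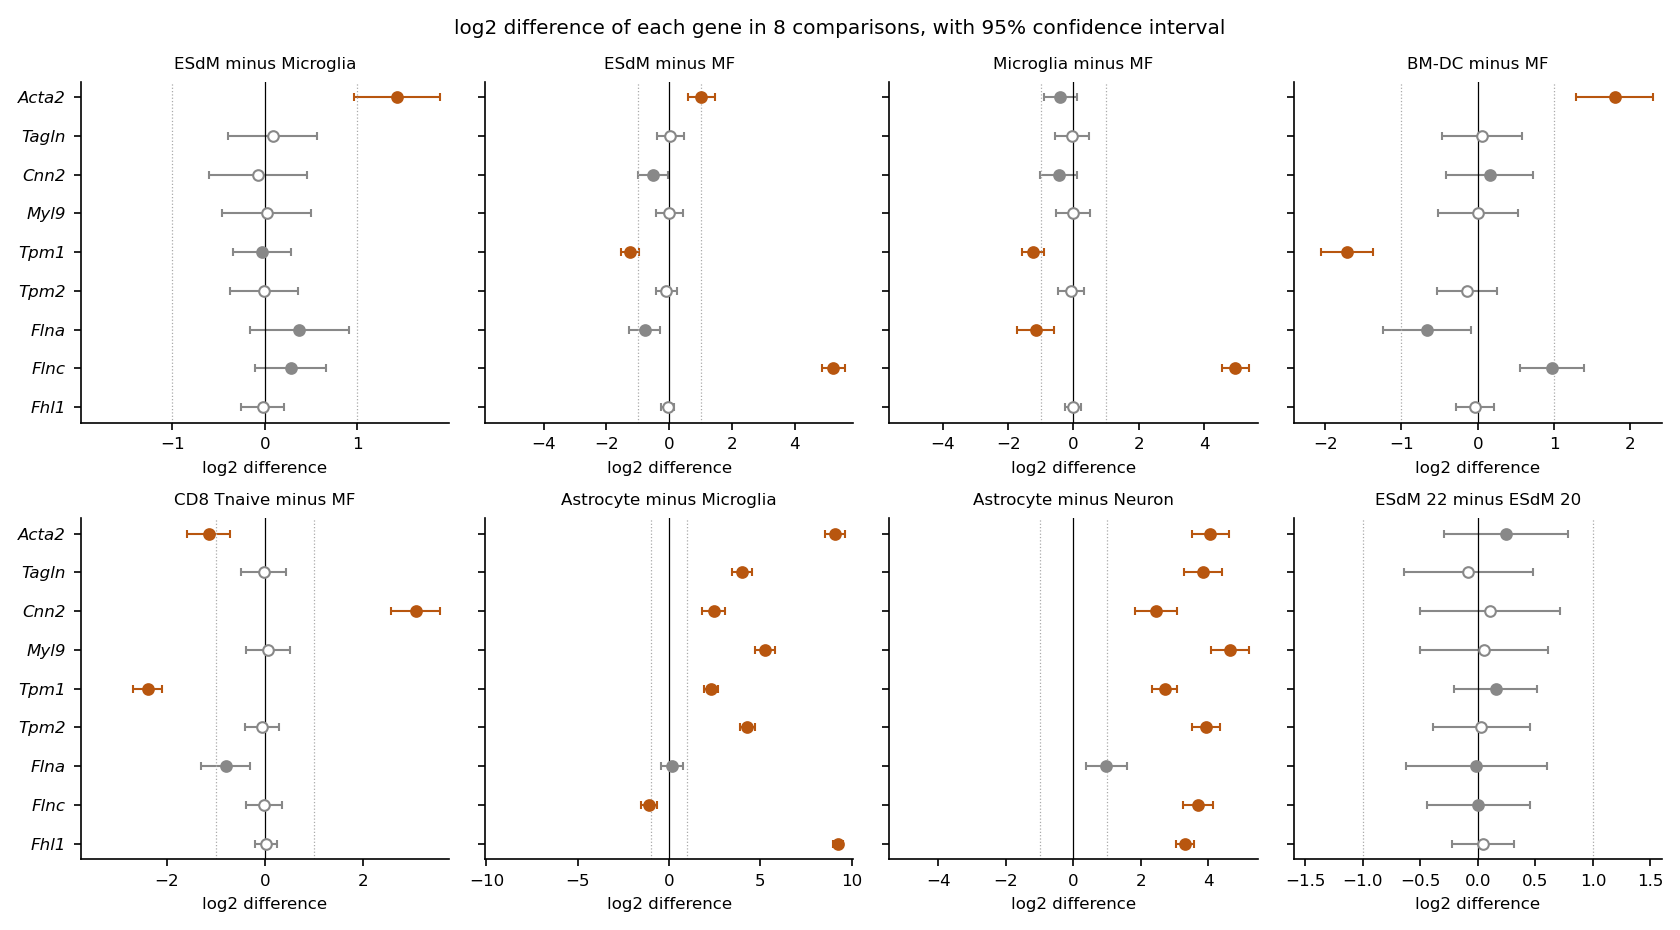
log2 difference of each gene (horizontal axis, first group minus second, with 95% confidence interval) in 8 comparisons; orange points were called, grey points were not, open points were undetected on all arrays of both groups, and dotted lines mark the minimum size of 1. Nearly all genes lie right of 0 in the Astrocyte comparisons, Flnc stands apart in ESdM and Microglia minus MF, and no gene was called between the ESdM lines.

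ESdM against Microglia is the comparison in the study's title. Of the 9 genes 1 was called, against 2.07% of all genes in either direction, 0.601% higher and 1.47% lower: Acta2 was 2.69-fold higher in ESdM. The difference was 1.43 ± 0.223 log2 units (SE; adjusted p = 5.01e-05, limma), and no Microglia array overlapped with the 6 ESdM arrays, a separation that 20.8% of all genes had. It rests on the 1 probe: with the mean over the 4 Acta2 probes it was 0.43 (adjusted p = 0.366), without background correction 0.64, and with the authors' processed values 0.62, none of them called. Within the chips that both groups share it was 1.58 and 1.37. The only Microglia array on the first of these chips was replicate 1, and the only ESdM 20 array on the second was replicate 3. For these chips the size of the difference alone is therefore given. Flnc differed by 0.28 ± 0.185 (95% interval -0.11 to 0.67), Flna by 0.37 ± 0.254 (-0.16 to 0.91) and Tpm1 by -0.031 ± 0.150 (-0.35 to 0.28), and their arrays overlapped. The remaining 5 genes were undetected on all arrays of both groups. Between ESdM 22 and ESdM 20, limma called 0 of the 9 genes and 0 of all 12814; at an unadjusted p below 0.05 there were 0 members and 527 genes. The arrays of the lines did not overlap for 4 genes, Acta2 among them, and for 12.9% of all genes. The others of these 4, Tagln, Myl9 and Fhl1, were undetected on all arrays of both lines, so their separation lies within background. The 95% intervals of the 4 detected members lay within -0.63 to 0.79 log2 units.

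Against MF, ESdM had 2 genes higher and 1 lower, where 23.6% of all genes were called, 11.5% higher and 12.1% lower. Microglia had 1 higher and 2 lower, where 22.5% were called, 11.0% higher and 11.5% lower. Arrays did not overlap for 5 of the 9 genes in ESdM against MF (47.4% of all genes) and for 4 in Microglia against MF (55.7%). Both comparisons share the MF arrays. By its 1 probe past the filter, Flnc was at least 32.3-fold higher in ESdM (adjusted p = 4.38e-19, limma) and at least 26.6-fold higher in Microglia (adjusted p = 7.54e-17). These bounds hold for the background-corrected values: the fitted differences of 5.24 and 4.96 log2 units were 3.28 and 3.03 without that correction, still called. Tpm1 was 2.40-fold lower in ESdM (-1.26 ± 0.137 log2 units, SE) and 2.35-fold lower in Microglia (-1.23 ± 0.162), and the second Tpm1 probe was also lower and called in both, at -1.05 and -1.12. Flna was 2.23-fold lower in Microglia (-1.16 ± 0.274, adjusted p = 8.98e-04, limma) and in ESdM it differed by -0.78 ± 0.232 (adjusted p = 0.00551), under the minimum size. Acta2 was 2.03-fold higher in ESdM than in MF (1.02 ± 0.203, adjusted p = 1.07e-04). That call sat at the minimum: it was 1.00 without ESdM 20 replicate 2, 0.99 without MF replicate 3 and 0.94 without MF replicate 4, each under the minimum before rounding, 0.49 without background correction and 0.62 with median scaling, and the other 3 Acta2 probes were not called. In Microglia against MF, Acta2 differed by -0.40 ± 0.241 (adjusted p = 0.184).

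BM-DC against MF gave 1 gene higher and 1 lower, against 7.51% of all genes called higher, 10.2% lower and 17.7% in either direction. Arrays did not overlap for 5 of the 9 genes and for 48.1% of all genes. Among these 5, Tpm2 was undetected on all arrays of both groups. Acta2 was 3.47-fold higher in BM-DC (1.80 ± 0.241 log2 units, SE; adjusted p = 8.21e-07, limma), and of its other probes 1 of 3 was called, at 1.09. The difference was 0.96 without background correction and 0.92 as the mean over probes, neither called. Tpm1 was 3.28-fold lower (-1.71 ± 0.162, adjusted p = 2.54e-09), as was its second probe at -1.24. Flnc was detected on 3 of 3 BM-DC and 0 of 4 MF arrays, at least 1.67-fold higher (fitted difference 0.97, adjusted p = 2.47e-04), and did not reach the minimum size; without BM-DC replicate 1 it did (1.09). Flna differed by -0.67 ± 0.274 (adjusted p = 0.0521) and Cnn2 by 0.16 ± 0.272 (adjusted p = 0.736). Raw intensity on the BM-DC chip was below that of every other chip. Of 10 fibroblast markers, Fn1 (6.78) and Col5a1 (5.51) were detected on 3 of 3 BM-DC arrays, none of the 10 was detected on an MF array, and the list means were 4.61 to 4.88 and 4.30 to 4.31. The part of either in these differences was not tested.

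CD8 Tnaive against MF gave 1 gene higher and 2 lower, against 14.4% of all genes called higher, 16.7% lower and 31.1% in either direction. Arrays did not overlap for 3 of the 9 genes and for 48.2% of all genes. Cnn2 was 8.46-fold higher in CD8 Tnaive (3.08 ± 0.239 log2 units, SE; adjusted p = 1.57e-11, limma). Without background correction the difference was 1.69 and as the mean over probes 2.34, both called, and its second probe was at least 2.55-fold higher against MF arrays without detection. Tpm1 was 5.23-fold lower (-2.39 ± 0.142, adjusted p = 7.23e-14), with the second probe at -1.89. By its brightest probe, which no CD8 Tnaive array detected, Acta2 was at least 1.73-fold higher in MF (adjusted p = 3.69e-05), a call that the other 3 probes, 1 of them detected on 1 of 5 CD8 Tnaive arrays, did not share and that was lost without background correction (-0.46). Flna differed by -0.80 ± 0.241 (adjusted p = 0.00572), its arrays overlapped, and it passed the minimum without CD8 Tnaive replicate 1 (-1.004).

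**Figure D3:**
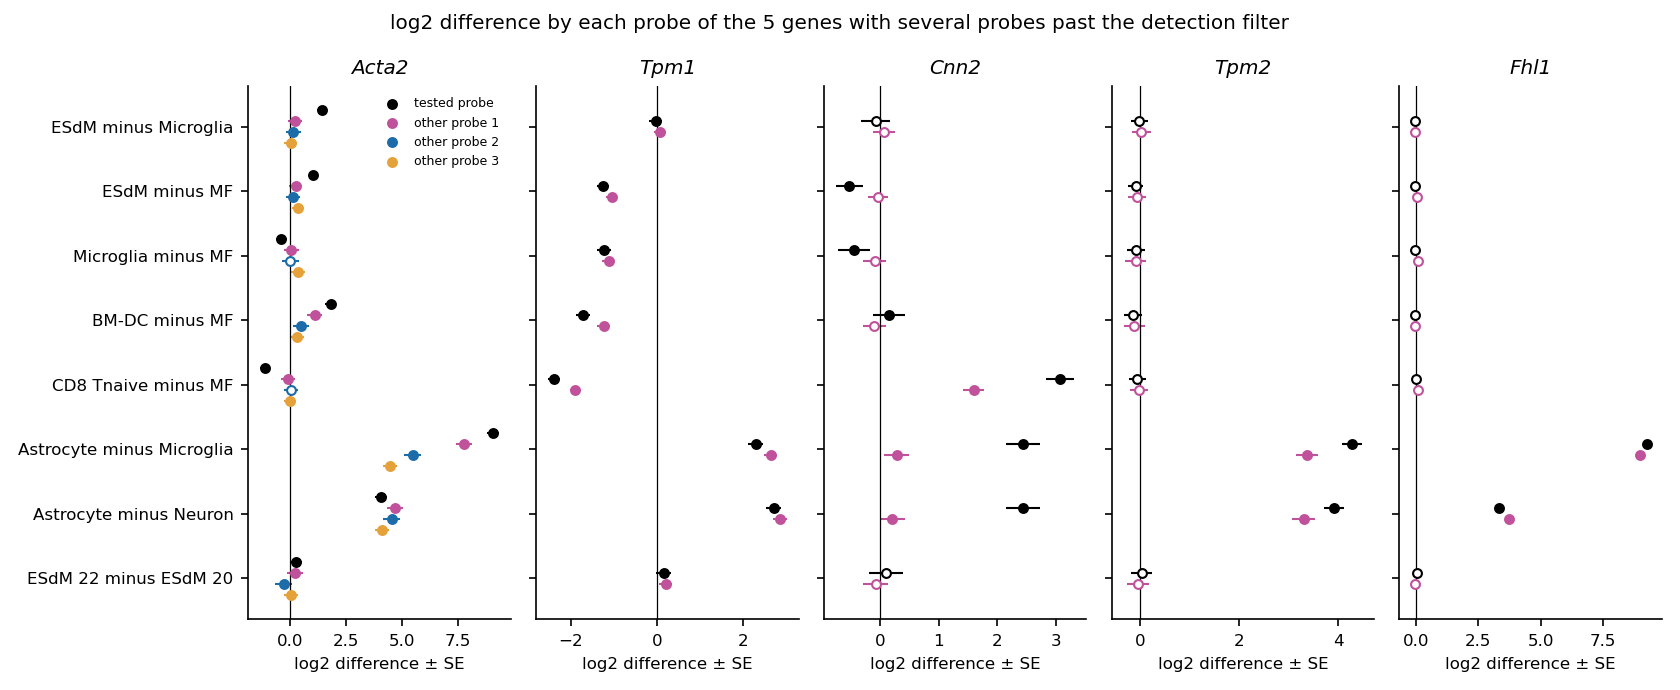
log2 difference (horizontal axis, ± SE) in 8 comparisons (vertical axis) by each probe of the 5 genes with more than 1 probe past the filter; black is the probe used in the tests, colours are the other probes, and open points are probes undetected on all arrays of both groups. The probes of Tpm1, Tpm2 and Fhl1 were called in the same comparisons and directions, whereas the Acta2 probes separate in Astrocyte minus Microglia (9.07 to 4.45), and the second Cnn2 probe stays near 0 in the Astrocyte comparisons.

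Other contractile genes were taken as a list of 26, of which 24 were matched and 17 tested; Myh11, Synpo2, Pdlim3, Nexn, Kcnmb1, Ppp1r12b and Ppp1r14a did not pass the filter. In Astrocyte against Neuron, 10 were higher and 1 lower, with a median of 1.22 log2 units against 0.0029 for all genes. Of all genes, 17.6% were called higher and 14.8% lower there. Vinculin (Vcl), which anchors actin at adhesions, was 15.6-fold higher, alpha-actinin 1 (Actn1) 14.6-fold and the LIM protein Csrp1 9.02-fold, while Csrp2 was 27.3-fold lower. In Astrocyte against Microglia, 9 were higher and 0 lower, with a median of 1.14 against -0.017, where 18.8% of all genes were called higher and 16.6% lower. The intermediate filament gene Synm was at least 14.1-fold higher, caldesmon (Cald1), which binds actin and myosin, at least 6.22-fold, and Pdlim7 5.14-fold.

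In the macrophage-type comparisons, the same 17 genes went in both directions. Of all genes, 2.07% were called in ESdM against Microglia, 23.6% in ESdM against MF and 22.5% in Microglia against MF. The share was 17.7% in BM-DC against MF and 31.1% in CD8 Tnaive against MF. In ESdM against Microglia, 1 was called: zyxin (Zyx), a focal adhesion protein, was 2.24-fold lower in ESdM. ESdM against MF had 2 higher (Pdlim7, 5.17-fold, and Smtn, 2.01-fold) and 4 lower, led by Tns1 (4.51-fold lower, detected on 5 of 6 ESdM arrays), Csrp1 (2.78-fold) and Csrp2 (2.40-fold, detected on 2 of 6 ESdM arrays). Microglia against MF had 3 higher (Zyx, 3.72-fold, Pdlim7, 2.90-fold, and Smtn, 2.37-fold) and 3 lower (Tns1, 4.40-fold, Csrp2, at least 2.13-fold, and Actn1, 2.23-fold). BM-DC against MF had 4 higher, led by Zyx (4.94-fold), Csrp2 (4.75-fold) and Svil (2.67-fold, detected on 2 of 4 MF arrays), and 1 lower, Smtn (2.27-fold, detected on 1 of 3 BM-DC arrays). CD8 Tnaive against MF had 3 higher (Pdlim7, 4.61-fold, Zyx, 4.44-fold, and Actn1, 2.24-fold) and 5 lower, led by Vcl (14.7-fold) and Tns1 (5.94-fold, detected on 3 of 5 CD8 Tnaive arrays). In these 5 comparisons the median difference of the list lay between -0.037 and 0.049 log2 units. Between the ESdM lines, none of the 3 lists had a gene called.

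Paralogs of the members were 17 genes, of which 14 were matched and 11 tested. Their counts stand beside shares of all genes called of 35.4% in Astrocyte against Microglia and 32.4% in Astrocyte against Neuron. Against MF the shares were 23.6% for ESdM, 22.5% for Microglia, 17.7% for BM-DC and 31.1% for CD8 Tnaive, and 2.07% in ESdM against Microglia. In Astrocyte against Microglia, 6 were higher and 2 lower: Tagln3 was at least 5.74-fold, Myl12a 5.09-fold and Tpm4 2.89-fold higher, and Tpm3 was 8.98-fold and Tagln2 4.27-fold lower. Actg2, the enteric smooth muscle actin, which also counts in the contractile list, was at least 1.98-fold higher, and beta actin (Actb) differed by 0.15 ± 0.192 log2 units (adjusted p = 0.544, limma). In Astrocyte against Neuron, 4 were higher and 1 lower, with Myl12a 11.8-fold (detected on 2 of 3 Neuron arrays), Tagln2 10.4-fold and Tpm4 4.99-fold higher and the neuronal gene Tagln3 9.17-fold lower. ESdM against MF had 0 higher and 2 lower, Myl6 (3.10-fold) and Tpm4 (2.74-fold), and Microglia against MF had 1 lower, Myl6 (3.29-fold). CD8 Tnaive against MF had 2 higher, Myl12b (2.49-fold) and Fhl2 (at least 1.99-fold), and 1 lower, Tagln2 (2.12-fold). ESdM against Microglia and BM-DC against MF had 0 called.

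Regulators of SRF and its inputs were 18 genes, of which 14 were matched and 13 tested. The shares of all genes called were 32.4% in Astrocyte against Neuron and 35.4% in Astrocyte against Microglia. Against MF they were 23.6% for ESdM, 22.5% for Microglia, 17.7% for BM-DC and 31.1% for CD8 Tnaive. Srf itself was 2.27-fold lower in Astrocyte than in Neuron (adjusted p = 5.71e-06, limma) and differed by -0.45 ± 0.189 log2 units between Astrocyte and Microglia (adjusted p = 0.0435), under the minimum size. In Astrocyte against Neuron, 6 were higher, led by Tgfbr2 (46.4-fold), Myh9 (6.14-fold) and Smad3 (4.40-fold). In Astrocyte against Microglia, 5 were higher, led by Myh10 (34.6-fold, detected on 1 of 3 Microglia arrays), Smad3 (8.12-fold) and Rhob (3.27-fold), and 2 lower, Tgfb1 (7.68-fold, detected on 1 of 3 Astrocyte arrays) and Cfl1 (2.63-fold). Rhob, Tgfbr1 and Tgfbr2 were the 3 genes lower in ESdM than in MF (4.18-fold, 2.31-fold and 2.77-fold) and the 3 lower in Microglia than in MF (4.08-fold, 4.12-fold and 3.04-fold). BM-DC against MF had 1 higher, Tgfb1 (2.37-fold), and 2 lower, Smad3 (at least 6.58-fold) and Tgfbr1 (2.87-fold). CD8 Tnaive against MF had 5 higher, led by Smad3 (5.27-fold), Rock1 (3.26-fold) and Srf (2.77-fold), and 3 lower, Tgfb1 (5.24-fold, detected on 4 of 5 CD8 Tnaive arrays), Rhob (4.79-fold) and Tgfbr1 (2.65-fold).

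**Figure D4:**
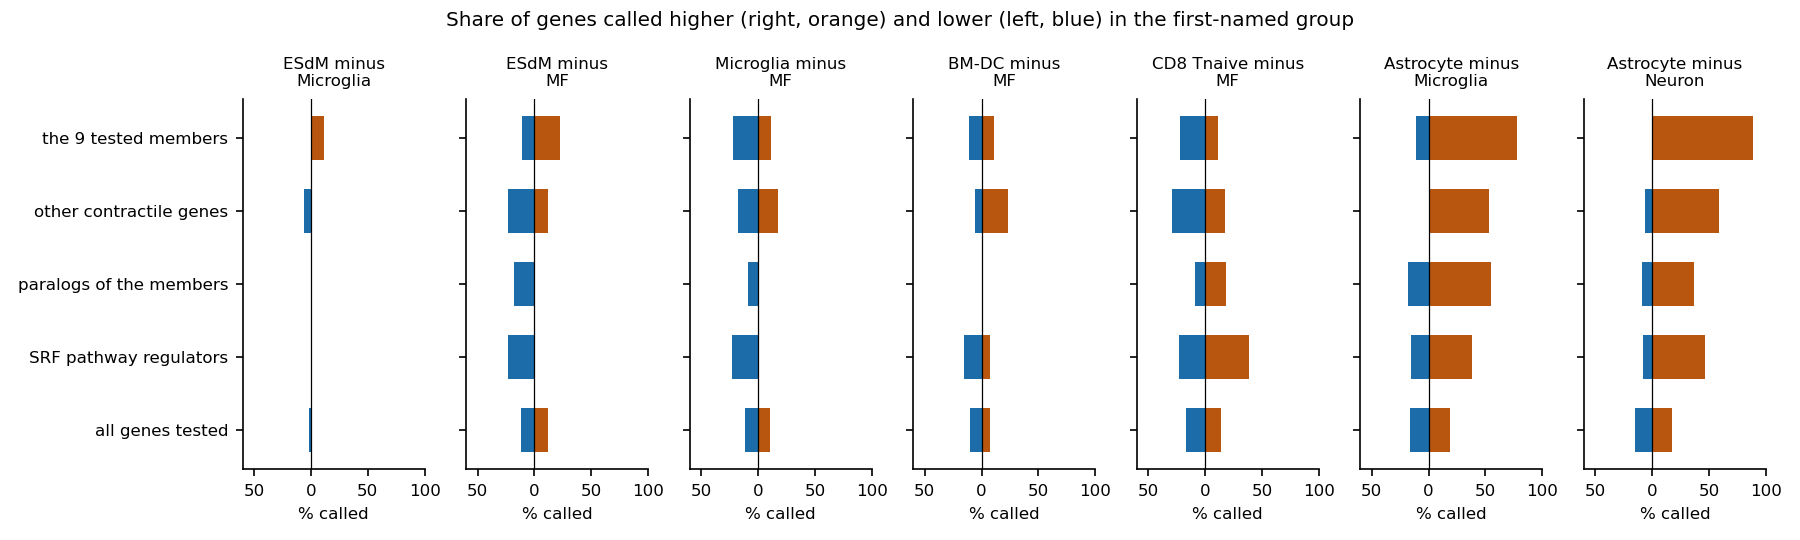
Share of genes (horizontal axis, % of those tested) called higher (orange, right) and lower (blue, left) in the first-named group of 7 comparisons, for the 9 tested members, the 3 further lists and all 12814 genes. In the comparison of Astrocyte with Neuron 8 of the 9 members were called higher.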

How the data were processed

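RNA from 8 groups of mouse cells was read on 27 Illumina bead arrays. The deposited scanner table holds, per the file headers, each probe's average intensity and a detection p-value; whether its background was subtracted is not given in the sources used here. The authors' value table, used as an alternative, holds intensity on a linear scale with nearly equal quantiles on all arrays, and how the authors made it is not given in the sources used here. Genes come from GEO's platform annotation: 34885 probes had 1 symbol, 18 several and 10378 none. In limma 3.58.1 (R 4.3.3), background was inferred from the detection p-values (normexp, offset 16), arrays were quantile normalized and log2 values taken. The filter asked for detection (p-value under 0.05) on 3 or more arrays, and each gene was tested by its probe with the highest mean. One linear model with a mean per group (19 residual degrees of freedom) gave each comparison, adjusted by Benjamini-Hochberg over 12814 genes; ESdM is the mean of both lines. Calls needed an adjusted p-value under 0.05 together with a log2 difference of 1 or more. The bounds quoted as "at least" use the lowest detected signal per array (4.52 to 4.78).

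The members and lists were chosen with earlier results of these data known. All members are named, and all their probes past the filter were compared. Of the 9 member probes not past it, 7 were detected on no array, the second probes of Tagln, Flna and Flnc among them. From each further list, at most 3 called genes per direction with the largest difference are given. The genes singled out beyond that (Srf, Actb, Actg2 and the markers) were chosen after their values were seen. Precision is limited by how many arrays each group has. The fit was tested on simulated data. No 2 arrays held identical values. ESdM replicates are numbered by their titles (1 to 3), although the descriptions give replicate 3 for all of them. Same-numbered replicates did not vary together, so no pairing was used. Alternatives covered background, scaling, filter, probe choice, chip, replicate number and each array left out.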

Additional observations from a re-analysis of the deposited data

How the results depend on the processing

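Every comparison was recomputed with other background, scaling, filter, probe, chip and sample choices. Of the member counts, 2 changed by more than 1.5 times. For ESdM against Microglia (1 called) the count was 0 without background correction, 0 with the authors' processed values and 0 with the mean over probes. For BM-DC against MF (2 called) it was 1 in those 3 settings and 4 with median scaling. Leaving out 1 array at a time gave 7 to 8 members called for Astrocyte against Microglia, 8 to 9 for Astrocyte against Neuron, 2 to 3 for BM-DC against MF, 3 to 4 for CD8 Tnaive against MF, 2 to 3 for ESdM against MF, 1 to 1 for ESdM against Microglia, 3 to 3 for Microglia against MF and 0 to 0 between the ESdM lines. Steps called between neighbouring groups were 12 in the main setting, 12 with median scaling and 9 both without background correction and with the authors' values.

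Without background correction the calls over all genes went from 265 to 123 in ESdM against Microglia, 3030 to 1702 in ESdM against MF, 2882 to 1579 in Microglia against MF, 2266 to 1130 in BM-DC against MF, 3989 to 2447 in CD8 Tnaive against MF, 4536 to 2764 in Astrocyte against Microglia and 4150 to 2569 in Astrocyte against Neuron. With median scaling the median difference of all genes was -0.121 log2 units in Microglia against MF (0.015 in the main setting), -0.083 in ESdM against MF (0.020) and -0.102 in BM-DC against MF (-0.026). It also moved the share of calls that were higher from 48.9% to 23.2% in Microglia against MF, from 48.8% to 25.7% in ESdM against MF and from 42.5% to 25.7% in BM-DC against MF. Under it the member calls in ESdM against MF were 1 higher and 2 lower, in place of 2 higher and 1 lower. Flna passed the threshold in ESdM against MF (-1.26), BM-DC against MF (-1.07) and Astrocyte against Neuron (1.15), Flnc in BM-DC against MF (1.03), and Acta2 no longer did in ESdM against MF (0.62). Acta2 also lost its calls in ESdM against MF, BM-DC against MF and CD8 Tnaive against MF without background correction (0.49, 0.96 and -0.46), with the authors' values (0.48, 0.95 and -0.42) and with the mean over probes (0.43, 0.92 and -0.31). Flnc in Astrocyte against Microglia was -0.93 without background correction and -0.94 with the authors' values. The cause of these changes was not tested.

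The direction reversed in 14 recomputed member differences, none of them called. Flna in Astrocyte against Microglia ran from -0.11 (without Astrocyte replicate 3) to 0.36 when 1 array was left out. Between the ESdM lines, leaving out 1 array gave -0.23 to 0.18 for Flna and -0.17 to 0.15 for Flnc; Flna was 0.34 within the second shared chip, and Flnc was -0.12 with median scaling and -0.17 within the first shared chip. Tpm1 in ESdM against Microglia was 0.038 with median scaling, 0.019 with the mean over probes, 0.085 within the second shared chip and -0.098 to 0.028 when 1 array was left out.

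Pairing by replicate number was checked: in 31 same-numbered pairs the correlation of deviations ran from -0.356 to 0.252, with 2 above 0.1. These correlations cannot show whether same-numbered arrays were prepared together, and the main fit used no pairing. With the replicate block 8 members were called in each Astrocyte comparison, 1 in ESdM against Microglia, 3 in Microglia against MF, 2 in BM-DC against MF, 3 in CD8 Tnaive against MF, 0 between the ESdM lines and 2 in place of 3 in ESdM against MF, where Acta2 was 0.98.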
